A study of Mus musculus with 28 samples.

Results

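Solitary MT2_Mm LTRs are the long terminal repeats that MERVL, a mouse endogenous retrovirus, left behind without its internal part. They were taken from the deposited repeat tables as every integrant whose merged name held MT2_Mm and nothing else, a choice that used no expression value. This gave 1129 of 3404964 transposable element (TE) integrants of the mm9 mouse genome. Of these, 546 (48.4%) had 16 or more reads over the 16 RNA-seq libraries and were tested, 436 had 1 to 15 reads and 147 had none.

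The study asked how KAP1, DNA methylation and TET enzymes act on TEs in naive mouse embryonic stem cells (mESCs) grown in 2i and LIF. RNA-seq was done on wild-type (WT) mESCs, on mESCs lacking Dnmt1, Dnmt3a and Dnmt3b (DNMT TKO) and on mESCs lacking Tet1, Tet2 and Tet3 (TET TKO). Every culture, controls included, was transduced with a puromycin-selected lentiviral vector and collected at day 5. The vector was either empty (shEmpty) or carried a hairpin against Kap1 (shKap1), with 3 libraries per vector in WT and in DNMT TKO and 2 in TET TKO. The labels give all lines as J1 of strain 129S4/SvJae, the DNMT TKO and TET TKO lines came from other laboratories, and each genotype was a single line, so genotype and line cannot be told apart. The replicates came from independent experiments by the study's methods, and p-values measure the spread between these libraries.

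The LTR of MERVL is the promoter of the virus, and a solitary LTR keeps that promoter without any viral gene. In the mouse embryo MT2_Mm is most active at the 2-cell stage, where the transcription factor Dux binds it and where it also starts or ends chimeric transcripts of host genes. In mESCs it is silent in most cells, and KAP1 (gene Trim28), a scaffold that brings H3K9 methyltransferases to DNA, is among the factors known to keep MERVL silent. DNMT enzymes write DNA methylation and TET enzymes oxidise it to 5-hydroxymethylcytosine (5hmC).

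The sequences of the LTRs were read from the mm9 (NCBIM37) assembly for 1115 members, and 890 of them were of full length, defined as within 15% of the most common length of 493 bases. Of the full-length members, 828 began with TG and ended with CA, the ends of an intact LTR. The Dux core searched for was GATTCAATC, on both strands, and it was present in 702 of the 890 full-length members (78.9%) and in 728 of all 1115 (65.3%). It almost always lay on the minus strand of the LTR, so that the LTR read GATTGAATC, most often from base 158. Among the 188 full-length members without it, 129 carried the single change G5A, counted from base 1 of GATTGAATC. In LTRs of 400 to 600 bases the core was present in 0.464% of 77578 LTRs that were not MT2, in 0.0919% of MT2B, 0.275% of MT2B2, 0.659% of MT2C_Mm and 1.02% of MT2A. It was present in 0.149% of 32851 promoters of RefSeq genes of 300 bases. A match to these letters is a description of the sequence and was not tested as a binding site. The letters TATAAG were found in 853 members, most often from base 274 of the LTR.

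The stretch from about base 131 of the LTR, which holds both motifs, is given here 5′ to 3′ on the strand of the LTR for 6 members on which the results turn. Capitals mark GATTGAATC or its G5A form GATTAAATC, and TATAAG. The first 3 carry the core. They are the member with most reads among those that rose, the member in which Popdc3 begins in the gene models used for counting, and the member upstream of Neto2. The other 3 carry G5A, and they are the member with most reads of all, a member upstream of Ifng and a member upstream of BC080695, which lacks TATAAG here.
chr1:58824169-58824368, minus strand: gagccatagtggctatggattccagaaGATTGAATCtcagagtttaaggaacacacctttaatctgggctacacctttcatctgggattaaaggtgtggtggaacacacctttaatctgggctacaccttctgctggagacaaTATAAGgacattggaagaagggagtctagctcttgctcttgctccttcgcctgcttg
chr10:44897662-44897913, plus strand: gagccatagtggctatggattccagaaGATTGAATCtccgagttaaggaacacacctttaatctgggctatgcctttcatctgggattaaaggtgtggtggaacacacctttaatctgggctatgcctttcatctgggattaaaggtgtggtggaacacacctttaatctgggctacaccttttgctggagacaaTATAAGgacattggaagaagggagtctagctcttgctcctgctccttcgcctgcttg
chr8:88226455-88226654, minus strand: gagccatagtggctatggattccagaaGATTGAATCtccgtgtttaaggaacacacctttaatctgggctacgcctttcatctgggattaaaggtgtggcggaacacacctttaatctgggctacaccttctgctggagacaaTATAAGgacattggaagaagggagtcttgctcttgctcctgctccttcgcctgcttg
chr9:108555989-108556129, minus strand: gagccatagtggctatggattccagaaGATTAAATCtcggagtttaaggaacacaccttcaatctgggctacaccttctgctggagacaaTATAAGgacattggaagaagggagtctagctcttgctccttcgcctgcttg
chr10:117865242-117865382, plus strand: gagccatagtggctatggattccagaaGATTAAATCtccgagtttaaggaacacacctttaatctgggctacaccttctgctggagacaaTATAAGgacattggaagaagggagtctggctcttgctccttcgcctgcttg
chr4:143152344-143152536, plus strand: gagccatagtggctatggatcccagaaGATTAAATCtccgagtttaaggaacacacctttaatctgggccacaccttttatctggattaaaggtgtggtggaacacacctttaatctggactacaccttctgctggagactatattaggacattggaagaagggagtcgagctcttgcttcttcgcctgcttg

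Between the 2 motifs the LTR carries repeats of a unit of about 53 bases, which is also the difference between the 2 most common lengths, 493 bases (273 members) and 440 bases (79 members). By length, 699 members fell in the class of 467 to 519 bases, 189 in the class shorter by 1 unit and 20 in the class longer by 1 unit, as the member at Popdc3 is. In the genome, 831 members lay outside genes, 178 inside a gene on the other strand and 120 inside a gene on the same strand, and 97 were on chromosome X. In the GENCODE vM1 annotation 47 transcripts began inside 45 members. Of these, 33 were miRNA entries, and the other 14 began at a median of base 323.5 (239 to 414), with 13 of the 14 past base 274.

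Gene reads ranged from 18108431 to 29373696 per library and reads on all TE integrants from 898152 to 1803819. Levels are in reads per 1000000 gene reads (CPM), on library sizes scaled by the trimmed mean of M-values. Trim28, the target of the hairpin, went from 1752 ± 207 to 165 ± 21.9 CPM in WT (SD, n = 3), from 1869 ± 197 to 427 ± 91.5 CPM in DNMT TKO (n = 3) and from 1835 ± 89.8 to 166 ± 3.84 CPM in TET TKO (n = 2). The log2 change was smaller in DNMT TKO than in WT by 1.28 ± 0.21 (edgeR quasi-likelihood test, adjusted p = 8.02e-04), so the knockdown was weaker in the DNMT TKO libraries, and its part in the DNMT TKO results below was not tested. The ES cell marker Pou5f1 changed by -0.12 ± 0.06, -0.16 ± 0.06 and 0.08 ± 0.08 in log2 upon knockdown in WT, DNMT TKO and TET TKO, none of which passed the test. In WT, 3 of 9 ES cell markers fell, the pluripotency factors Sox2 (-1.34 ± 0.08), Klf4 (-1.32 ± 0.15) and Tbx3 (-2.04 ± 0.08). Of the endoderm markers 1 rose and 1 fell of 4, of the trophoblast markers 2 rose and 1 fell of 4, and 1 of 3 mesoderm and 1 of 4 fibroblast markers fell. Of all 24 markers, 3 rose and 7 fell in WT, where 10.8% of all genes rose and 6.54% fell. In DNMT TKO 4 rose and 3 fell (10.1% and 2.42% of all genes), and in TET TKO 1 rose and 3 fell (8.05% and 4.46%). Their part in the results on the LTRs was not tested, and in bulk RNA a change in the share of cells that express an LTR cannot be told apart from a change in level per cell.

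Upon KAP1 depletion the RNA of the solitary MT2_Mm LTRs in sum was higher in each genotype, and most so in TET TKO. Over all 1129 members the sum was 23.2, 35.0 and 36.2 CPM in the WT shEmpty libraries and 147, 201 and 190 CPM in the WT shKap1 libraries, a ratio of means of 5.69. In DNMT TKO it was 25.4, 36.5 and 42.9 CPM with shEmpty and 109, 198 and 132 CPM with shKap1, a ratio of 4.19. In TET TKO it was 29.3 and 25.4 CPM with shEmpty and 484 and 495 CPM with shKap1, a ratio of 17.9. The shKap1 libraries were above the shEmpty libraries in every genotype with no overlap, the WT and DNMT TKO shKap1 libraries overlapped each other, and both TET TKO shKap1 libraries were above all others. The mean of TET TKO with shKap1 was 2.73 times that of WT with shKap1, and that of DNMT TKO 0.817 times. No test is given for the sum, since it adds up members of unequal weight.

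A single member carried much of the shEmpty signal. The LTR at chr9:108555826-108556259 (minus strand), which has the G5A form, was at 12.0 ± 4.06 CPM in WT shEmpty and 14.7 ± 3.82 CPM in WT shKap1 (SD, n = 3). Without it the sums went from 19.4 ± 3.13 to 164 ± 25.0 CPM in WT (8.46-fold), from 22.0 ± 7.40 to 136 ± 44.3 CPM in DNMT TKO (6.16-fold) and from 18.9 ± 2.06 to 477 ± 8.16 CPM in TET TKO (25.3-fold, n = 2). With more reads in sum, the number of members with at least 1 read went from 480 to 845 in WT, from 484 to 810 in DNMT TKO and from 388 to 910 in TET TKO. The 10 strongest members of each group, that LTR included, held 50.7% of the reads in WT shEmpty and 22% in WT shKap1, 48.5% and 22.6% in DNMT TKO, and 48.1% and 14.5% in TET TKO. The members under 16 reads, which were not tested one by one, went in sum from 1.74 ± 0.30 to 11.1 ± 1.84 CPM in WT and from 1.72 ± 0.36 to 31.9 ± 0.53 CPM in TET TKO.

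**Figure D1:**
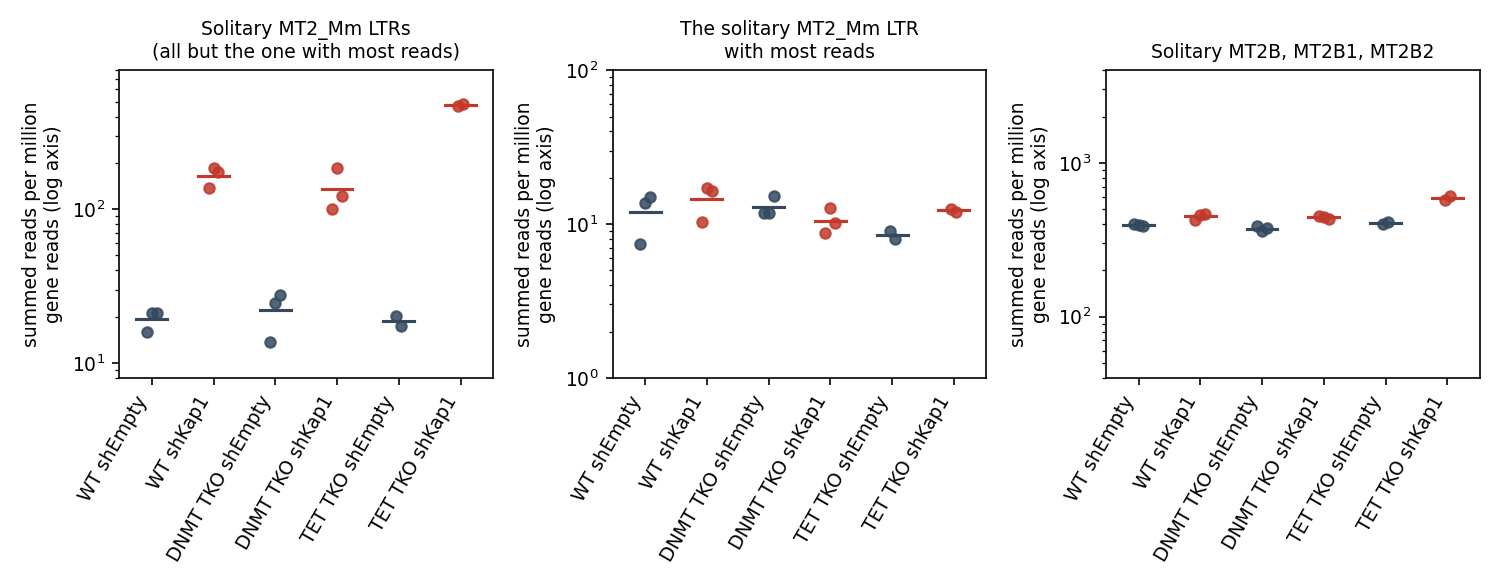
Summed CPM in each of the 16 libraries (log axes of equal span) for the solitary MT2_Mm LTRs other than the strongest (left), for the strongest at chr9:108555826-108556259 (middle) and for solitary MT2B, MT2B1 and MT2B2 LTRs (right). Dots are libraries, lines are group means, dark is shEmpty and red is shKap1. The group means in the left panel go from 19.4 to 164 CPM in WT and from 18.9 to 477 CPM in TET TKO, while the means of the right panel stay between 374 and 590 CPM.

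The sums of integrants that still have their internal part changed in the same direction with larger ratios, and those of related LTRs with smaller ones. MERVL integrants with an MT2_Mm LTR were 11-fold higher in sum with shKap1 in WT, 7.34-fold in DNMT TKO and 37.0-fold in TET TKO. The ratios were 1.14, 1.18 and 1.46 for solitary MT2B, MT2B1 and MT2B2 LTRs, which are related families, and 1.66, 1.40 and 2.26 for solitary MT2C_Mm LTRs. Of the 1129 solitary MT2_Mm LTRs, 41 lay within 5 kb of a MERVL internal part.

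Tested one by one, 295 of the 546 members were called up in WT (54%), 229 in DNMT TKO (41.9%) and 485 in TET TKO (88.8%). By limma-voom the counts were 314, 245 and 508, and by DESeq2 they were 158, 114 and 285 of the 418, 445 and 445 members to which it gave an adjusted p. A member was called when the adjusted p was below 0.05 over all 123880 TE integrants tested and the change was at least 2-fold. Over all those integrants, 12.1% were called up and 2.05% down in WT, 15% and 0.944% in DNMT TKO, and 14.7% and 0.971% in TET TKO. In the other direction edgeR called 1 member in WT and 0 in DNMT TKO and TET TKO, where 0 members had a negative log2 change with an unadjusted p below 0.05, and limma-voom and DESeq2 called 0 in each genotype. A log2 change of 0 or below was found in 15 members in WT, 20 in DNMT TKO and 2 in TET TKO. The median log2 change of the members was 3.01 in WT, 2.47 in DNMT TKO and 5.03 in TET TKO, and that of all TE integrants tested was 0.23, 0.27 and 0.33. Since 172, 166 and 234 members had no read in the shEmpty libraries of WT, DNMT TKO and TET TKO, the medians were also taken with those members at a floor of 3 reads per group. They were then 2.61, 2.19 and 3.67 over the 473, 446 and 540 members for which a fold could be given. The other 73, 100 and 6 had no shEmpty read and too few shKap1 reads to exceed the floor. These medians thus leave out members whose rise was small or could not be measured.

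Most of these members passed the 16-read filter through their shKap1 libraries, and such a member had to differ. The 2 TET TKO shKap1 libraries held a median of 47.8% of the reads of a tested member, and 368 of the 546 would reach 16 reads without them. The 14 members with exactly 16 reads had a median of 2 reads in the 8 shEmpty libraries and 14 in the shKap1 libraries, and the 23 members with 15 reads had 2 and 13. The 52 members with 16 or more reads in the shEmpty libraries alone do not share that limit. When the whole table was filtered and fitted on this rule, 38 of the 52 were called up in WT, 34 in DNMT TKO and 44 in TET TKO, and the median log2 changes were 2.57, 2.09 and 4.33. The share of all TE integrants called under this rule was not taken, and the shares above are for the filter on all 16 libraries.

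**Figure D2:**
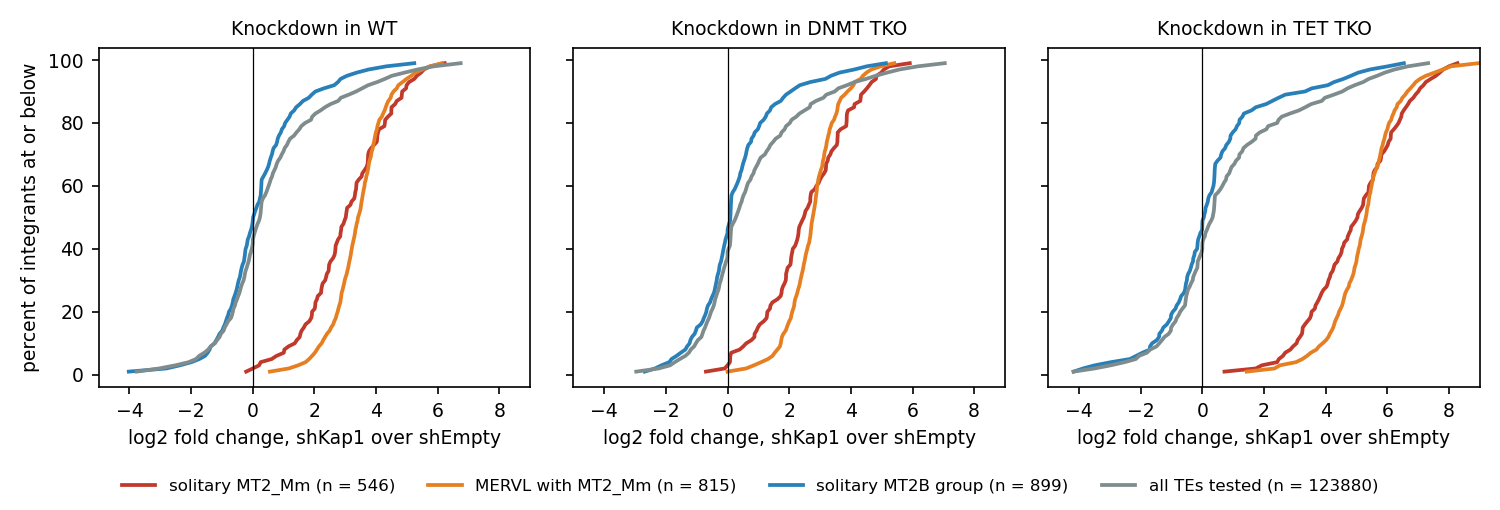
Cumulative share of integrants (percent) against the log2 change upon KAP1 depletion in WT, DNMT TKO and TET TKO for the 546 tested solitary MT2_Mm LTRs, 815 MERVL integrants with an MT2_Mm LTR, 899 solitary MT2B, MT2B1 and MT2B2 LTRs and all 123880 TE integrants tested. The solitary MT2_Mm curve lies to the right of that of all TEs over most of its range, apart from the upper end, with medians of 3.01, 2.47 and 5.03, and close to that of MERVL, with medians of 3.41, 2.76 and 5.30.

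The calls overlapped between genotypes. Of the 295 members called up in WT, 280 were also called up in TET TKO, which is 94.9% of the calls in WT and 57.7% of those in TET TKO, where the shares over all TE integrants were 72.6% and 59.9%. In all 3 genotypes 166 members were called up, 157 in TET TKO alone and 36 in none (30.4%, 28.8% and 6.59%, against 6.43%, 3.59% and 77% of all TE integrants tested). A call in 1 genotype alone is not a test of a difference, and the read filter bears on these shares. Members were called up both outside and inside genes. In WT, DNMT TKO and TET TKO, 228, 173 and 371 of the 405 tested members outside genes were called up. Inside a gene on the same strand the counts were 27, 23 and 46 of 56, and on the other strand 40, 33 and 68 of 85. All 24 tested members within 5 kb of a MERVL internal part were called up in TET TKO, 17 in WT and 14 in DNMT TKO. On chromosome X 18, 12 and 26 of 29 were called up.

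The core of the Dux site went along with how often a full-length member reached 16 reads. Of 702 members with the core 455 did so (64.8%), of 129 with G5A 35 (27.1%) and of 59 with another sequence at that place 30 (50.8%). Among those tested, 263, 202 and 415 of 455 with the core were called up in WT, DNMT TKO and TET TKO, against 9, 6 and 28 of 35 with G5A and 11, 9 and 19 of 30 others. The classes differ in more than these letters. Median identity to the majority sequence was 97.57% with the core, 88.2% with G5A and 92.7% in the others. Length enters this identity, since a missing unit counts as differences, and the core member of 440 bases at chr1:95753483-95753922 also had 88.2%. The median share of 100-base windows that occur once among all MT2_Mm and MERVL integrants was 30.18%, 83.89% and 73.51%. These windows were not searched for in the rest of the genome. The part of identity, length or this share in the difference was not tested. Along the read count, the core was present in 85.8% of the members with 16 or more reads, 58.8% of those with 1 to 15 and 8.9% of those with none, whose median length was 191 bases.

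**Figure D3:**
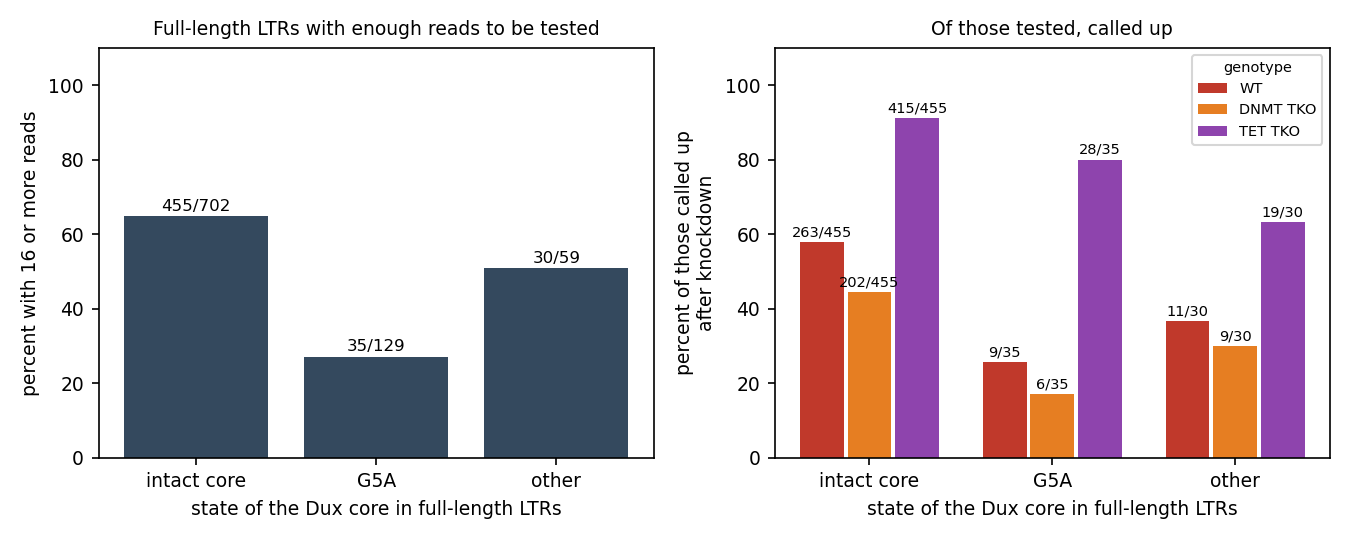
Solitary MT2_Mm LTRs of full length by the sequence at the Dux core: share with 16 or more reads and share of those tested that were called up in WT, DNMT TKO and TET TKO, in percent. Members with the core reached 16 reads in 455 of 702 cases and those with G5A in 35 of 129, and in TET TKO 415 of 455 and 28 of 35 of those tested were called up.

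The member with most reads of all, at chr9:108555826-108556259, was not called upon knockdown in any genotype. It was at 7.39, 13.7 and 15 CPM in WT shEmpty, 10.3, 17.2 and 16.5 CPM in WT shKap1, 8.99 and 8.00 CPM in TET TKO shEmpty and 12.5 and 12.0 CPM in TET TKO shKap1. The WT groups overlapped, and the log2 changes were 0.28 ± 0.16 in WT (adjusted p = 0.296), -0.30 ± 0.16 in DNMT TKO and 0.53 ± 0.20 in TET TKO (adjusted p = 0.0531). It lies 4548 bases upstream of the start of Arih2, a ubiquitin ligase, overlaps a miRNA entry of the annotation and was covered by an H3K4me3 peak, the mark of active promoters, in both replicates.

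The member at chr1:58824006-58824498 (minus strand), which carries the core and lies outside genes, had the next most reads. It was at 0.44, 0.28 and 0.42 CPM in WT shEmpty and at 6.55, 7.41 and 7.78 CPM in WT shKap1. In DNMT TKO it went from 0.81, 0.45 and 0.77 to 4.52, 3.53 and 3.37 CPM, and in TET TKO from 0.35 and 0.19 to 7.36 and 8.62 CPM. The groups did not overlap within any genotype. The log2 changes were 4.24 ± 0.27 in WT (adjusted p = 1.25e-53), 2.50 ± 0.25 in DNMT TKO and 4.85 ± 0.34 in TET TKO, and the change was smaller in DNMT TKO than in WT by -1.74 ± 0.38 (adjusted p = 8.93e-04). Trim28 fell less in the same DNMT TKO libraries, as given above.

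The next members by reads also rose in WT, DNMT TKO and TET TKO. At chr16:81780205-81780697 the values were 0.22, 0.21 and 0.32 CPM in WT shEmpty, 2.20, 2.81 and 2.72 CPM in WT shKap1 and 7.22 and 6.67 CPM in TET TKO shKap1, with log2 changes of 3.32, 2.55 and 5.08 in WT, DNMT TKO and TET TKO. At chr15:6495853-6496345 the log2 changes were 4.10, 2.48 and 5.47, and at chr13:66148569-66149061, which overlaps an H3K9me3 region, 3.04, 2.50 and 4.73. All 3 lie outside genes. At chr10:117865113-117865545, a G5A member 12990 bases upstream of the cytokine gene Ifng, they were 3.43, 2.80 and 5.58. Ifng itself had 20 reads in all 16 libraries.

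**Figure D4:**
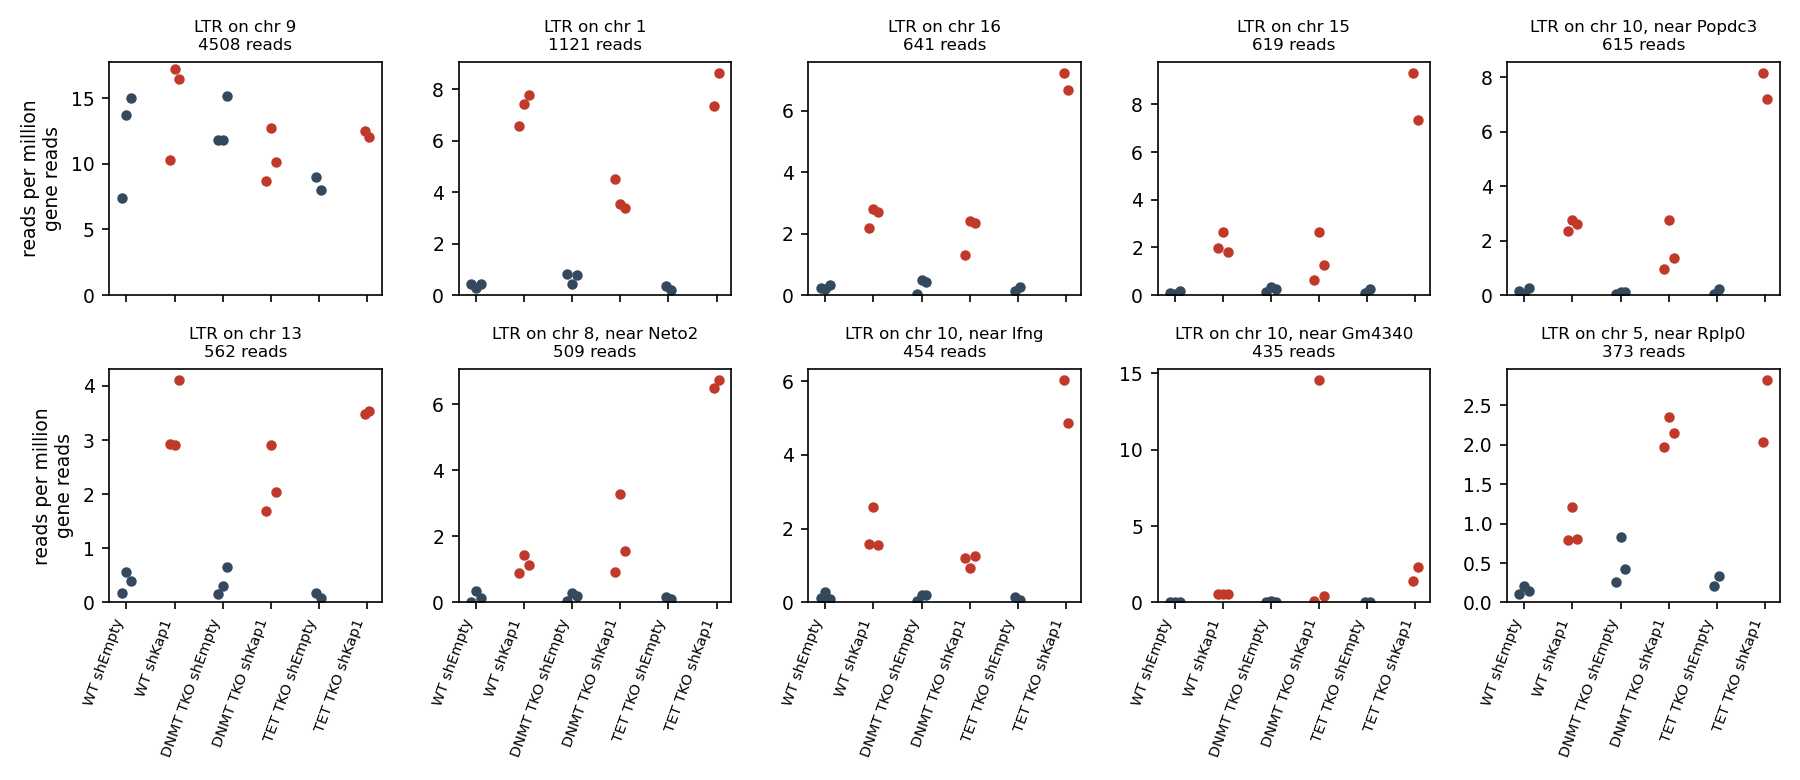
CPM in each library for the 10 solitary MT2_Mm LTRs with most reads, each on its own linear axis, with shEmpty dark and shKap1 red. The first overlaps between shEmpty and shKap1 in WT, the other 9 are higher with shKap1 in every genotype with no overlap, and the one near Gm4340 reaches 14.5 CPM in 1 DNMT TKO library.

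The member at chr10:103630794-103631280, 1666 bases upstream of the 2-cell gene Gm4340, had 1 library far above the others of its group. It was at 14.5 CPM (309 reads) in DNMT TKO shKap1 replicate 2 and at 0.10 and 0.41 CPM in replicates 1 and 3. It was called in DNMT TKO (log2 change 7.28 ± 2.07, adjusted p = 0.0360), and not in WT (4.04 ± 2.84) or TET TKO (6.31 ± 2.89), where its values were 0.52, 0.52 and 0.53 CPM and 1.44 and 2.31 CPM with shKap1. Without that library the DNMT TKO value was 3.09 and still called, while the call was lost in 13 of the 16 fits that left out 1 library, which gave 3.09 to 9.84, and in the fit of only the groups compared. The member at chr5:116007057-116007503, 2419 bases upstream of the ribosomal protein gene Rplp0, was already higher in DNMT TKO with shEmpty than in WT, at 0.25, 0.83 and 0.42 CPM against 0.11, 0.21 and 0.14 CPM (log2 difference 1.67 ± 0.45, adjusted p = 0.00407). Without DNMT TKO shEmpty replicate 2 that difference was 1.09 and lost its call.

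Among members with 200 or more reads, the largest rise in WT was at chr15:6488845-6489236, which had 0, 1 and 2 reads in WT shEmpty and 21, 32 and 39 in WT shKap1 (log2 change 5.07 ± 0.51). It lies within 10 kb of the member at chr15:6495853-6496345 on the same strand. The next were at chr6:91291956-91292395 (4.63 ± 0.78, or 4.11 to 6.43 without 1 library) and at chr16:49788159-49788652 in Gm15518 (4.50 ± 0.52). In DNMT TKO chr19:23737211-23737704 (5.04 ± 0.73) and chr2:132471379-132471871, in an exon of the lincRNA gene AU019990 (4.70 ± 0.61), rose most after the member near Gm4340. They had 0, 0 and 1 and 0, 2 and 0 reads in DNMT TKO shEmpty and 9, 18 and 15 and 17, 12 and 29 in DNMT TKO shKap1, and leaving out 1 library moved the changes to between 4.50 and 6.84 and between 4.18 and 7.27. In TET TKO the member at chr5:65305576-65306068 had 0 reads in both shEmpty libraries and 46 and 37 with shKap1, at least 37-fold higher, with the 0 taken as 3 reads in sum. Of the members with 200 or more reads over all libraries and at least 1 in TET TKO shEmpty, the largest changes were at chrX:76191926-76192418, 1991 bases from a MERVL internal part (6.73 ± 0.57), which had 2 and 0 reads with shEmpty and 104 and 78 with shKap1, and at chr13:110832258-110832750 (6.12 ± 0.61). Without 1 library the former ranged from 5.86 to 9.67. The 1 member called down in WT, by edgeR and not by limma-voom or DESeq2, was at chr10:60505297-60505789, where shEmpty had 14, 10 and 12 reads and shKap1 0, 4 and 7 (log2 change -1.43 ± 0.51, adjusted p = 0.0396, -2.33 to -0.89 when 1 library was left out, with the call lost in 4 of 16 fits), and its change was not called in DNMT TKO (0.80 ± 0.47) or TET TKO (0.68 ± 0.48).

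Whether the response to KAP1 depletion differed between genotypes was tested for each member. In TET TKO against WT 6 members were called up and 0 down by edgeR, where 0.831% and 0.243% of all TE integrants were called. Without adjustment 85 members above 0 and 2 below had p below 0.05, and the limit set by the read filter holds for them too. The count of 6 is small and near the share over all TE integrants. It moves with single libraries, being 0 without TET TKO shEmpty replicate 2, 1 without TET TKO shEmpty replicate 1, 2 without WT shEmpty replicate 3, and 3 without WT shEmpty replicate 2 or TET TKO shKap1 replicate 1. It was 30 with limma-voom, and 0 with DESeq2, which gave an adjusted p to 68 members, both with 0 down. Of the 6, limma-voom did not call those at chr8:88226292-88226784 and chr13:110832258-110832750 and called the rest. Its share over all TE integrants was not taken. Over the 52 members filtered on the shEmpty libraries the median difference was 1.74 in log2 and 1 was called. The median over all TE integrants under that filter was not taken, so 1.74 has no background beside it. In DNMT TKO against WT 0 members were called up and 2 down, where 1.33% and 0.473% of all TE integrants were called. There 8 members above 0 and 33 below had p below 0.05 without adjustment, limma-voom called 1 up and 5 down and DESeq2 0 and 1 of 178, and the count was 1 without WT shEmpty replicate 3 or DNMT TKO shEmpty replicate 2.

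The called member with most reads in TET TKO against WT was at chr8:88226292-88226784, 2131 bases upstream of Neto2. It had 0, 0.36 and 0.14 CPM in WT shEmpty, 0.89, 1.43 and 1.12 CPM in WT shKap1, 0.18 and 0.11 CPM in TET TKO shEmpty and 6.48 and 6.72 CPM in TET TKO shKap1. The shEmpty groups of WT and TET TKO overlapped and the shKap1 groups did not. The difference in log2 change was 2.85 ± 0.66 (adjusted p = 0.00356). At chr13:110832258-110832750, which went from 4, 3 and 4 to 17, 21 and 11 reads in WT and from 1 and 1 to 62 and 57 in TET TKO, it was 3.74 ± 0.94 (adjusted p = 0.0106). At chr17:21579337-21579829, 7979 bases upstream of Zfp51, a KRAB zinc finger gene, reads went from 2, 2 and 3 to 11, 11 and 6 in WT and from 1 and 0 to 38 and 47 in TET TKO (4.25 ± 1.17, adjusted p = 0.0316). When 1 library was left out in turn, these 3 differences lay between 1.77 and 3.26, 3.49 and 3.95, and 3.46 and 6.37, and the call was lost in 2, 3 and 7 of the 16 fits.

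The other 3 had no read in either TET TKO shEmpty library, so that the fold in TET TKO is a lower bound. The G5A member at chr4:143152214-143152699, upstream of BC080695, had 66 and 54 reads in TET TKO shKap1, at least 53.6-fold higher, and 6, 19 and 19 in WT shKap1. The member at chr19:8162854-8163337 in Slc22a28, which overlaps a KAP1 region, had 29 and 30, at least 26.3-fold higher. The member at chr8:53060172-53060658 had 13 and 8, at least 9.37-fold higher, and 0, 0 and 1 in WT shKap1. Their adjusted p in TET TKO against WT were 0.0301, 0.0484 and 0.0213, and the call was lost in 5, 11 and 6 of the 16 fits that left out 1 library. In DNMT TKO against WT the called members were the one at chr1:58824006-58824498 given above and the one at chr16:43798091-43798583 inside the dopamine receptor gene Drd3, which went from 2, 1 and 2 to 19, 22 and 26 reads in WT and from 0, 11 and 0 to 10, 4 and 6 in DNMT TKO (difference -2.94 ± 0.83, adjusted p = 0.0273). The latter rests on the 11 reads of DNMT TKO shEmpty replicate 2, without which the difference was 1.85, and the former was called in all 16 fits that left out 1 library.

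With shEmpty alone, most members had few reads: 52 of the 546 had 16 or more over the 8 shEmpty libraries, so a small number of calls says little about the others. Against WT, 8 members were called up and 4 down in DNMT TKO, where 3.48% and 6.45% of all TE integrants were, and 2 were called up and 0 down by edgeR in TET TKO, where 1.74% and 2.33% were. Without adjustment 34 members above 0 and 20 below in DNMT TKO, and 19 and 24 in TET TKO, had p below 0.05, and limma-voom and DESeq2 called 0 down in TET TKO. The 2 in TET TKO became 0 without TET TKO shEmpty replicate 1 and 1 without WT shEmpty replicate 2 or 3. The member at chr12:19861284-19861776, outside genes, differed in both. It had 13, 12 and 9 reads in WT shEmpty, 0, 0 and 1 in DNMT TKO shEmpty and 35 and 34 in TET TKO shEmpty, and it stayed at 1, 1 and 0 reads in DNMT TKO shKap1. The log2 difference was -4.66 ± 0.75 in DNMT TKO and 1.42 ± 0.38 in TET TKO. Whether each line carries this integrant was not tested.

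The other member called in TET TKO lies on an exon of Dhtkd1, a mitochondrial dehydrogenase gene, at chr2:5845646-5846196, and it had 11 and 3 reads in TET TKO shEmpty and 131 and 112 in TET TKO shKap1. It had 2 reads in the other 12 libraries together. Dhtkd1, which was looked at after these values were seen, changed by -0.67 ± 0.11 in WT and by 2.75 ± 0.14 in TET TKO (difference 3.42 ± 0.18, adjusted p = 4.47e-09). In DNMT TKO the called member at chr6:91291956-91292395 had 1, 9 and 12 reads with shEmpty against 0, 1 and 0 in WT, and the one at chr12:24746668-24747107 9, 10 and 11 against 0, 0 and 0, at least 9.97-fold higher. The latter had 16, 10 and 5 reads in DNMT TKO shKap1, and its change was not called in any genotype.

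The study's chromatin files were set against the members. An H3K4me3 peak of both replicates, from WT mESCs, overlapped 9 of 1129 members, 31 H3K27me3 regions, the mark of Polycomb, 12 a KAP1 region and 23 an H3K9me3 region, 22 of them of the KAP1-dependent set. Among those tested, 0.733% had H3K4me3, 1.47% a KAP1 region and 2.93% an H3K9me3 region, against 7.2%, 8.15% and 7.73% of all TE integrants tested. H3K27me3 was on 1.83% of tested members and on 0.874% of all TE integrants tested. In the tested members the median share of 100-base windows that occur once among all MT2_Mm and MERVL integrants was 38.45%. Its part in these counts was not tested. Of the 8 tested members in a KAP1 region, 5, 4 and 7 were called up in WT, DNMT TKO and TET TKO, and of the 538 outside such regions 290, 225 and 478. Of the 16 tested members in an H3K9me3 region, 12, 10 and 13 were called up. Of the 4 tested members with H3K4me3, those at chr6:67189549-67190041, chr5:122033035-122033532 and chr4:145454722-145455212 were called up in WT and TET TKO and the one at chr9:108555826-108556259 was not.

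The members in a KAP1 region with most reads were at chr19:8162854-8163337 (log2 changes 2.09 in WT and 4.37 in DNMT TKO) and at chrX:14998360-14998860 (2.86 in WT, where shEmpty had 1, 1 and 2 reads and shKap1 5, 14 and 7). The DNMT TKO value at chr19:8162854-8163337 rests on 0, 2 and 0 reads with shEmpty and 20, 10 and 15 with shKap1. Those at chr10:82879480-82879978 (2.52), chr7:50435139-50435631 (2.55) and chr14:64924844-64925360 (2.88) were called up in WT as well. The calls in WT at chr19:8162854-8163337, chr10:82879480-82879978, chr7:50435139-50435631 and chr14:64924844-64925360 were lost in 5, 4, 3 and 2 of the 16 fits that left out 1 library. That at chr14:64924844-64925360 ranged from 2.29 to 5.45 in these fits, on 0, 0 and 2 reads in WT shEmpty. Those at chr8:98638439-98638973 and chr14:46024402-46024940 were called in TET TKO, on 0 and 1 and on 0 and 0 reads with shEmpty and 8 and 5 and 6 and 3 with shKap1, and lost the call in 2 and 3 of the 16 fits. The fragment of 38 bases at chr7:147200620-147200657 was called in none. 5hmC was counted over the same regions in 1 library per condition, so there is no replicate check. The median log2 ratio of shKap1 to shEmpty, each over its input, was 1.04 over the 12 KAP1 regions on members and 0.64 over all 25992 KAP1 regions, and 0.65 over the 22 KAP1-dependent H3K9me3 regions against 0.66 over all 14390. Of the 12, 5 had a 95% counting interval above 0 (41.7%), as did 26.6% of all KAP1 regions. Scaled on the totals of the H3K4me3 regions, the medians were 0.66 and 0.26 for KAP1 regions and 0.26 and 0.27 for KAP1-dependent H3K9me3 regions. All these ratios are for whole regions, which can reach well past the LTR, and some lie on a short fragment of an LTR. The 5 with an interval above 0 include the region around the fragment of 38 bases (1.17) and the one at chr14:46024402-46024940 (2.29). A change of 5hmC on the LTRs themselves was not tested.

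Genes on the same strand that start up to 25 kb past the start of a solitary MT2_Mm LTR were called up in a larger share than all genes tested. There were 291 such genes, and 173 had 16 or more reads and were tested. Of these, 50 were called up and 3 down in WT (28.9% up), 51 and 1 in DNMT TKO (29.5%), and 64 were called up in TET TKO (37%). Of all 20321 genes tested, 10.8% were called up and 6.54% down in WT, 10.1% and 2.42% in DNMT TKO and 8.05% and 4.46% in TET TKO. Genes on the other strand of the same windows were called up in 11, 9 and 12 of 82 cases (13.4%, 11% and 14.6%). The median log2 change of the 173 genes was 0.45, 0.33 and 0.63. In TET TKO against WT, 15 of the 173 were called up and 1 down, where 2.08% and 2.13% of all genes were, and the 15 became 8 without TET TKO shEmpty replicate 2 and 9 without TET TKO shKap1 replicate 2.

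The share was highest among genes that start in or near the LTR, and its trend with distance was not tested. Of 10 tested genes other than miRNA entries that start inside the LTR, 8 were called up in WT, 7 in DNMT TKO and 9 in TET TKO. Of 4 tested miRNA entries that start there, 2 were called up, both in TET TKO alone, so that with them the counts were 8, 7 and 11 of 14. Of the 78 genes that start 1 to 10 kb past it, 25, 24 and 32 were called up. Of the 84 genes at 10 to 25 kb 20, 22 and 24 were, and of the 103 at 25 to 50 kb 24, 23 and 23. Genes that start within 25 kb upstream of the LTR on its strand were called up in 14, 10 and 11 of 68 cases. Genes that hold the LTR were called up in 30, 27 and 33 of 93 cases when on its strand and in 25, 27 and 20 of 153 when on the other. A gene whose exon overlaps an LTR shares reads with it, which holds for 14 of the 173, and without those that start in the LTR the counts were 42, 44 and 53 of 159.

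**Figure D5:**
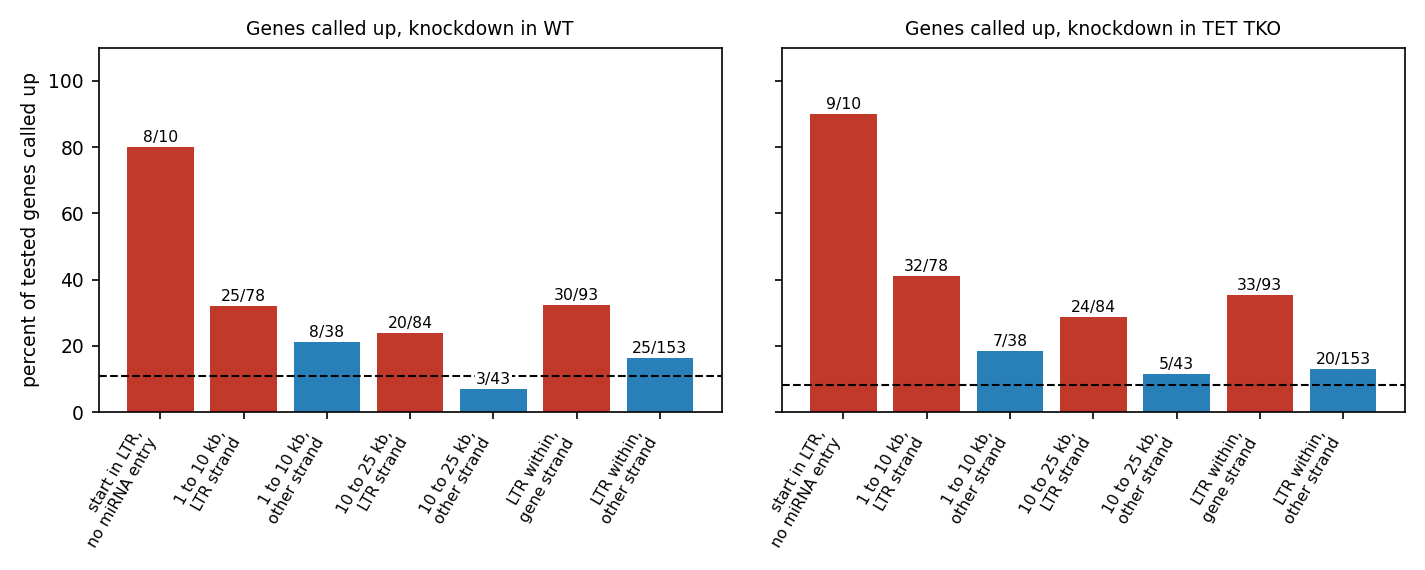
Share of tested genes called up (percent) upon KAP1 depletion in WT and in TET TKO, by the position of the gene relative to a solitary MT2_Mm LTR, with the count above each bar and the share of all tested genes (10.8% in WT and 8.05% in TET TKO) as dashed lines. Red bars are genes on the strand of the LTR and blue bars genes on the other strand. The share is highest for genes that start inside the LTR, 8 of 10 in WT and 9 of 10 in TET TKO without the 4 miRNA entries, and 8 and 11 of 14 with them.

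Taken as 97 pairs of a tested LTR and the tested gene downstream of it, the log2 changes in WT had a Spearman correlation of 0.46 across pairs, and 0.27 in TET TKO. Pairs are not independent, since they share the 6 or 4 libraries and some share a gene or an LTR. In WT the gene was called up in 27 of the 53 pairs whose LTR was called up (25 of 51 different genes), and in 10 of the 44 pairs whose LTR was not. Without pairs that share an exon the correlation was 0.43 in WT and 0.20 in TET TKO over 85 pairs.

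Popdc3 encodes a membrane protein that binds cAMP. In the gene models used for the read counts, its first exon begins inside the LTR at chr10:44897532-44898076. Popdc3 was not among the genes with a GENCODE vM1 transcript that begins inside a member. The LTR was at 0.17, 0.04 and 0.25 CPM in WT shEmpty and at 2.36, 2.77 and 2.61 CPM in WT shKap1, and Popdc3 at 0.67, 1.53 and 1.84 and at 18, 25.9 and 24.3 CPM. Popdc3 changed by 4.01 ± 0.30 in log2 in WT, 2.64 ± 0.27 in DNMT TKO and 3.81 ± 0.35 in TET TKO, and the LTR by 4.08 ± 0.36, 4.10 ± 0.40 and 5.85 ± 0.41. Without 1 library the change of the LTR ranged from 3.56 to 4.79 in WT and from 5.06 to 7.56 in TET TKO, where shEmpty had 1 and 6 reads. Some reads count for both. Neto2, an auxiliary subunit of kainate receptors, went from 8.33, 9.32 and 9.52 to 30.7, 32.9 and 36.1 CPM in WT and from 9.13 and 9.39 to 73.6 and 72.0 CPM in TET TKO. It shares no exon with the LTR 2131 bases upstream. Its log2 change was 1.87 ± 0.10 in WT and 2.97 ± 0.13 in TET TKO, a difference of 1.11 ± 0.16 (adjusted p = 2.17e-04) in the same direction as that of the LTR.

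Gm13109 and BC080695 are Prame-like genes of chromosome 4, each about 5 kb past a G5A LTR, and Gm13109 is also on the list of 2-cell genes used below. Gm13109 lies 5358 bases past chr4:143549475-143549960 and went from 2.28, 4.84 and 4.71 to 67.4, 88.4 and 92.5 CPM in WT and from 1.83 and 2.14 to 195 and 183 CPM in TET TKO. BC080695 lies 5164 bases past chr4:143152214-143152699 and went from 2.17, 3.06 and 4.21 to 42.5, 52.1 and 49.8 CPM in WT and from 1.02 and 1.09 to 128 and 119 CPM in TET TKO. In DNMT TKO with shEmpty BC080695 was at 0.30, 0.31 and 0.62 CPM, below every WT shEmpty library. The difference in response of TET TKO against WT was 2.23 ± 0.55 for Gm13109 (adjusted p = 0.0251) and 2.97 ± 0.51 for BC080695 (adjusted p = 0.00292). Both belong to a family of near-identical genes, between which unique reads may be divided unevenly.

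More genes downstream of an LTR rose in WT. B020004J07Rik (log2 change 4.60 ± 0.45) and Ddit4l (1.29 ± 0.12), an inhibitor of mTORC1 signalling, start inside an LTR. P4ha2, a subunit of the prolyl hydroxylase of collagen, starts 1515 bases past one (2.12 ± 0.29). Grid2ip, a scaffold of glutamate receptors, starts 8266 bases past one (4.80 ± 0.13) whose own 4 reads in WT shKap1 were too few to call it. The start of a gene was taken as the outermost of its annotated exons over all its transcripts. The GENCODE vM1 transcript of Ddit4l that begins in the LTR is not annotated as protein coding, while that of B020004J07Rik is. Ddit4l changed more in TET TKO than in WT (difference 1.02 ± 0.19, adjusted p = 0.00261). Its mean was 19.3 CPM in WT and 8.66 CPM in TET TKO with shEmpty, and 46.9 and 42.8 CPM with shKap1. The larger change thus went with a lower level in TET TKO shEmpty. The LTR in which it starts changed by 4.85 in WT and 3.09 in TET TKO. Gm6189, Gm13235 and Gm5580, at 3487, 3975 and 1252 bases, changed by 1.76 ± 0.43, 1.57 ± 0.17 and 1.47 ± 0.51 in WT, and that of Gm5580 lost its call in 4 of the 16 fits without 1 library (1.30 to 1.68). The LTR upstream of Gm13235 is one of the 9 with an H3K4me3 peak. Of genes that hold an LTR on their strand, Csrnp3 (2.38 ± 0.09), Epm2a, which encodes the glycogen phosphatase laforin (3.27 ± 0.24), the deubiquitinase gene Usp17l5 (3.26 ± 0.42) and Gm13151 (1.28 ± 0.14) rose in WT. The 2 genes other than miRNA entries that start inside an LTR and were not called up in WT were looked at after their values were seen. ENSMUSG00000093489, which starts in the LTR called down in WT at chr10:60505297-60505789, changed by -0.70 ± 0.27 in WT and 0.47 ± 0.27 in TET TKO and was not called in either. AI481877 fell in WT (-1.07 ± 0.26) and rose in TET TKO (1.01 ± 0.25), a difference of 2.08 ± 0.36 (adjusted p = 0.00116). The difference was called in all fits without 1 library, and the changes in WT and in TET TKO lost their call in 2 of 16 each (-1.22 to -0.79 and 0.90 to 1.13).

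Lrrn4 and Iqcf1, which the study treats as genes driven by MERVL LTRs, had no solitary MT2_Mm LTR within 25 kb upstream. Lrrn4 rose by 1.55 ± 0.19 in log2 in WT, 1.70 ± 0.18 in DNMT TKO and 3.17 ± 0.22 in TET TKO. Iqcf1 was called in TET TKO (4.50 ± 0.50) and changed by 1.89 ± 0.87 in WT (adjusted p = 0.0869).

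Genes of the 2-cell programme moved in the same direction as the LTRs. Of a list of 36 such genes 29 were tested, and 29 were called up in WT, 23 in DNMT TKO and 29 in TET TKO, with median log2 changes of 3.26, 2.74 and 5.73, where 10.8%, 10.1% and 8.05% of all genes were called up. Those tested held Dux and Duxbl, 5 genes of the Zscan4 cluster, 4 of the Tdpoz cluster and 5 of the Usp17l cluster. Dux was at 0.06, 0.32 and 0.39 CPM in WT shEmpty, 2.62, 4.50 and 5.60 CPM in WT shKap1, 0.05, 0.14 and 0.15 CPM in DNMT TKO shEmpty and 3.31, 5.55 and 4.41 CPM in DNMT TKO shKap1. In TET TKO it went from 0.18 and 0.11 to 8.57 and 8.93 CPM. Its groups did not overlap within a genotype, and its log2 changes were 3.9 ± 0.38, 5.14 ± 0.43 and 5.86 ± 0.48. Its difference between TET TKO and WT was 1.96 ± 0.75 (adjusted p = 0.114), so Dux itself was not called different. Of the 29 tested genes of the list, 14 were called up and 0 down in TET TKO against WT, with a median difference of 2.19 in log2. Of all genes, 2.08% and 2.13% were. In DNMT TKO against WT 0 of the 29 were called up and 4 down, where 946 and 504 of all 20321 genes were. Duxbl changed by 4.48 ± 0.42 in WT and 3.55 ± 0.35 in TET TKO and was not called in DNMT TKO (1.34 ± 0.54). Tdpoz1 (5.13 ± 0.73) and Tdpoz3 (4.39 ± 0.23) were the other 2-cell genes with the largest change in WT.

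Of 37 genes known to act on MT2_Mm, 1 was called up and 4 down in WT, where 10.8% and 6.54% of all genes were. In WT, Dux was the 1 called up, and Trim28, the GATA factor gene Gata2 (-1.02 ± 0.22), the corepressor gene Rcor2 (-1.03 ± 0.08) and Lin28a (-1.04 ± 0.32) fell. With the replicate number as a block, the change of Lin28a was just under 2-fold and lost its call. The call was also lost with limma-voom and without WT shEmpty replicate 1, WT shKap1 replicate 2 or WT shKap1 replicate 3. In DNMT TKO 3 rose and 3 fell, and in TET TKO 3 rose and 2 fell, against 10.1% and 2.42%, and 8.05% and 4.46%, of all genes. Dppa2, which acts upstream of Dux, was called up in DNMT TKO (1.20 ± 0.14) and TET TKO (1.57 ± 0.17) and changed by 0.59 ± 0.14 in WT, with differences from WT of 0.61 ± 0.19 (adjusted p = 0.0433) and 0.98 ± 0.22 (adjusted p = 0.0118), both under 2-fold.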

How the data were processed

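RNA-seq libraries were stranded and poly(A)-selected, single-end reads of 100 bases. Per the study's methods and the submitters' processing notes, the authors aligned reads to mm9 with HISAT2 2.0.1, kept unique alignments, counted reads per gene with featureCounts (1.5.1 in the notes, 1.5.0-p1 in the file header) and per integrant, on its strand, with multicov of bedtools 2.25, on repeat annotations that merge ERV internal parts with flanking LTRs. The deposited values are raw read counts. Peak and region files hold scores given by the authors' callers (MACS 1.4 for H3K4me3), from which only positions were used, and the 5hmC tables hold deposited read counts per region. Aligned reads are unique only, so an LTR whose sequence recurs elsewhere is seen in part, to an extent that can differ between members. In some named members 0% of 100-base windows occurred once among all MT2_Mm and MERVL integrants. Among them were chr16:81780205-81780697, chr10:44897532-44898076, chr2:5845646-5846196 and chr4:143152214-143152699. Their reads may cross the edge of the LTR, which was not tested, so a value is no lower limit of LTR RNA.

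Integrants with 16 or more reads over the 16 libraries (123880) and genes likewise (20321) were each fitted in 1 model with 6 groups by edgeR 4.0.16 quasi-likelihood (robust), with library sizes and TMM factors from gene counts in R 4.3.3. P-values were adjusted by Benjamini-Hochberg over each whole table. A call needs an adjusted p below 0.05 and a 2-fold change, and SE is the absolute log2 change over the square root of F. Same-numbered libraries of DNMT TKO and WT with shEmpty deviated together over genes in 3 of 3 pairs (r of 0.14 to 0.34), which pairs those groups by the data and not by the labels. Alternatives used limma 3.58.1 and DESeq2 1.42.0. The fit was also run on simulated counts with known fold changes, the outcome of which is not given here. Intervals and the floor of 3 reads cover counting error only.

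Sequences came from mm9, and promoters from RefSeq (GRCm38.p6). Strand use was checked in exons of 5000 genes, where 4040904 TE reads lay on the strand of the exon and 16121 on the other. The named members are the 10 with most reads, those with 200 or more reads that changed most in a contrast or differed most between genotypes (3 per direction), all tested members in a KAP1 region, and for genes the 15 with most reads among those called up in WT near or around an LTR, Trim28, Lrrn4, Iqcf1 and the 3 largest changes of each list. Members, lists (2-cell genes, MT2_Mm regulators, cell type markers) and tests were chosen with earlier results of these data known. The second 5hmC replicate was left out, because its files are named for other roles than the labels of its 4 libraries state.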

Additional observations from a re-analysis of the deposited data

Results flagged for a closer look

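The responses below differed between a mutant line and WT by the test of the difference itself, given as the log2 change upon KAP1 depletion in the mutant minus that in WT with the adjusted p of edgeR's quasi-likelihood test. No group had 4 or more libraries, so single libraries could not be examined for distance from their group in this way.

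In TET TKO, 6 of the 546 tested LTRs were called with a larger response than in WT, where 0.831% of all TE integrants were, so their number is near the background. DESeq2 or leaving out TET TKO shEmpty replicate 2 gave 0. The differences were 2.85 at chr8:88226292-88226784 (adjusted p = 0.00356), 3.74 at chr13:110832258-110832750 (0.0106) and 4.25 at chr17:21579337-21579829 (0.0316). They were 5.77 at chr4:143152214-143152699 (0.0301), 5.99 at chr19:8162854-8163337 (0.0484) and 8.02 at chr8:53060172-53060658 (0.0213), where TET TKO shEmpty had no read and the fitted value depends on the prior count and is no bound. Genes on or near solitary MT2_Mm LTRs with a larger response in TET TKO were Gm13109 (2.23, adjusted p = 0.0251), Ddit4l (1.02, 0.00261), Neto2 (1.11, 2.17e-04), BC080695 (2.97, 0.00292), Usp17l5 (2.47, 0.0499) and Gm6189 (2.39, 0.0428). AI481877 (2.08, 0.00116), which starts inside an LTR, Dhtkd1 (3.42, 4.47e-09), Lrrn4 (1.62, 0.00131) and the 2-cell gene Tdpoz3 (2.36, 0.00153) did so too. With shEmpty, Ddit4l and BC080695 were called lower in TET TKO than in WT. With shKap1, Ddit4l was not higher in TET TKO (42.8 CPM) than in WT (46.9 CPM), while BC080695 was (124 and 48.1 CPM).

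In DNMT TKO, the LTRs at chr1:58824006-58824498 (-1.74, adjusted p = 8.93e-04) and chr16:43798091-43798583 (-2.94, 0.0273) were called with a smaller response than in WT, 2 of 546 where 0.473% of all TE integrants were, so their number is near the background. Without DNMT TKO shEmpty replicate 2 the second was 1.85. A smaller response was also called for Gm13151 (-1.01, adjusted p = 0.00308), Gm13235 (-1.52, 4.36e-04), Grid2ip (-1.42, 2.55e-05), Popdc3 (-1.37, 0.0300) and Duxbl (-3.14, 0.0119). With shEmpty, Grid2ip and Popdc3 were called higher in DNMT TKO than in WT (log2 differences 1.52 and 1.03). Gm13151, Gm13235 and Duxbl were not called different with shEmpty. With shKap1, mean Grid2ip was not lower in DNMT TKO (34.2 CPM) than in WT (31.8 CPM). The mean of Popdc3 was lower there, with libraries that overlapped. Trim28 itself (1.28, 8.02e-04) and Tbx3 (1.37, 1.65e-07) fell less than in WT. Their part in the other differences was not tested.

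Of these 25 differences, 14 lost their call under at least 1 alternative. When 1 library was left out in turn, the call was lost in 12 of 16 fits for Gm6189 (2.24 to 2.49) and Usp17l5 (2.34 to 2.67), 8 for Popdc3 (-1.66 to -1.12), 6 for Gm13109 (2.08 to 2.46) and Gm13151 (-1.21 to -0.89), 4 for Ddit4l (0.89 to 1.14) and 1 for Duxbl (-3.71 to -2.66). Each LTR but the one at chr1:58824006-58824498 lost its call in at least 1 of those fits, and at chr16:43798091-43798583 the difference was 1.85 without DNMT TKO shEmpty replicate 2.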

How the results depend on the processing

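Of 162 knockdown calls of single LTRs and genes, 23 lost the call under at least 1 alternative (130 of 3815 comparisons), with none reversed. Between genotypes, 14 of 25 differences (112 of 573 comparisons) and 9 of 14 with shEmpty (39 of 336) lost the call under at least 1. The difference of DNMT TKO from WT at chr16:43798091-43798583 reversed to 1.85 without DNMT TKO shEmpty replicate 2, in a range of -3.52 to 1.85 over the libraries left out. Leaving out each library in turn gave 211 to 299 members called up in WT, 164 to 230 in DNMT TKO and 382 to 487 in TET TKO, 1 to 3 that differed in DNMT TKO against WT, 0 to 7 in TET TKO, 8 to 13 and 0 to 3 with shEmpty, and 43 to 51, 41 to 52, 55 to 64 and 8 to 20 genes in WT, DNMT TKO, TET TKO and the TET TKO difference. The ratios of sums were 5.03 to 6.21, 3.45 to 4.72 and 16.7 to 19.2.

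DESeq2 called 158, 114 and 285 members up in WT, DNMT TKO and TET TKO, 1 and 0 in the differences of DNMT TKO and TET TKO from WT, and 7 and 1 with shEmpty. It gave an adjusted p to 418, 445, 445, 178, 68, 385 and 225 of the 546 members in these comparisons, so members without one count neither as kept nor as lost. Limma-voom called 6 and 30 in the differences. With 5 or more reads (817 members) those differences held 1 and 3 calls. With 50 or more reads (237 members) 193 were called up in WT and 226 in TET TKO, 1 and 1 in the differences and 4 in TET TKO with shEmpty, from fewer members tested. Scaling from TE counts gave 4 in TET TKO with shEmpty. The filter on the 8 shEmpty libraries, chosen after seeing the data as was the sum without the strongest member, left 52 members, with 38, 34 and 44 called up and 1 and 1 in the differences. Without the strongest member the ratios of sums were 8.46 in WT and 25.3 in TET TKO. With no fold threshold 82 downstream genes were called up in WT, and a 10 kb window, with 93 genes tested, held 33 in WT and 31 in DNMT TKO. Shares over all genes and all TE integrants were taken in the main fit alone. Counts under another test, read filter or fold threshold have none beside them. With at least 50% of the LTR covered, 4 members had H3K4me3.

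With the replicate number as a block, 281, 219 and 474 members were called up in WT, DNMT TKO and TET TKO, 2 and 5 in the differences, and 12 and 3 with shEmpty. Same-numbered shEmpty and shKap1 libraries deviated together in WT (r of 0.10 to 0.28 over genes) and DNMT TKO (0.09 to 0.36) but not in TET TKO (6e-04). In each of the first 2, 1 of 3 pairs was not over 0.1, so the numbers were taken to pair only the shEmpty libraries of DNMT TKO and WT, where the block left the count at 12. Of the calls of single LTRs and genes, the block lost Lin28a in WT and chr19:8162854-8163337 in TET TKO against WT. Depth limits single members, at a median of 45 reads over 16 libraries, and groups of 2 limit TET TKO.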
